A study of Mus musculus with 17 samples.

Results

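Genes of the melanosome, the organelle in which melanocytes make and store melanin, were followed across mouse kidneys with and without the PRCC-TFE3 fusion protein. The 10 members were Gpnmb, Pmel, Mlana, Gpr143, Tyrp1, Tyr, Dct, Slc24a5, Slc45a2 and Oca2, out of 35971 genes with transcripts in the data. They were named as targets of the MiT transcription factors in the melanocyte lineage that are expressed in kidney. Since they were chosen on measured levels, with those of the Cre(+) and Cre(−) kidneys in view, every value against the Cre(−) kidneys is given as a description. Of the 10 members, 6 passed the filter on low counts (Gpnmb, Tyrp1, Gpr143, Slc24a5, Pmel and Dct) and 4 did not (Tyr, Mlana, Slc45a2 and Oca2). In the Cre(−) kidneys alone, Gpnmb, Dct and Slc24a5 reached the level of the filter, 0.541 CPM (counts scaled to a library of 1e6), in at least 3 libraries, so that Tyrp1, Gpr143 and Pmel passed through the kidneys in which they were higher.

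RNA from kidneys of 17 mice in 5 groups was sequenced. All mice carried the lsl-PRCC-TFE3 KI allele, a knock-in at Rosa26 that is silent until Cre removes a stop cassette. In the 13 Cre(+) mice the KSP-Cre transgene was driven by the Cadherin 16 promoter, which is active in the epithelium of the kidney tubule. The groups were 4 Cre(−) mice without the KSP-Cre transgene, 3 mice with the fusion alone (PRCC-TFE3 KI), 4 that were also HIF1a f/f (PRCC-TFE3 KI/Hif1α KO), 3 that were also HIF2a f/f (PRCC-TFE3 KI/Hif2α KO), and 3 with both floxed genes (PRCC-TFE3 KI/Hif1α/Hif2α DKO). Of the Cre(−) mice, replicates 1 and 2 also carried HIF1a f/f and the other two carried no floxed HIF allele. The labels give neither age nor sex.

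Each library held between 16504419 and 24668827 expected counts, at which 3 counts, taken as the smallest detectable amount, corresponded to 0.117 to 0.206 CPM. That limit covers counting error only. No batch was stated, and the library numbers, from 1 to 21, ran mostly within groups, so that library order and genotype cannot be told apart. Kidneys are mixtures of cells, and in bulk RNA fewer cells of a type cannot be told apart from less RNA per cell. The summed TPM of 4 proximal tubule markers was 2997 to 3440 in the Cre(−) kidneys, 118.6 to 178.1 in PRCC-TFE3 KI, 241.0 to 651.9 with loss of Hif1α, 200.3 to 564.6 with loss of Hif2α and 351.8 to 599.8 in the DKO. That of 10 macrophage markers was 138.0 to 181.3 in Cre(−) kidneys and 2364 to 2686 in PRCC-TFE3 KI. It was 1782 to 1912 with loss of Hif1α, 2054 to 2432 with loss of Hif2α and 1556 to 2117 in the DKO. One library stood apart in its adipocyte markers, PRCC-TFE3 KI replicate 2, with 2683 TPM against 5.69 to 378.9 in the other 16. The gene sum of Hif1a was 162.6 to 198.4 CPM in Hif1α KO, 173.9 to 203.3 in DKO and 184.0 to 231.6 in PRCC-TFE3 KI kidneys, and that of Epas1, which encodes HIF2α, was 136.5 to 149.3 in Hif2α KO, 155.5 to 165.3 in DKO and 173.2 to 191.7 in KI. Neither gene passed the test against KI in these groups (edgeR adjusted p = 0.37, 0.39, 0.079 and 0.21). These sums also count reads from outside the floxed exons and from cells without Cre, so they do not test the deletions.

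In a melanocyte, PMEL forms the fibrils on which pigment is laid down, and tyrosinase, TYRP1 and DCT carry out the steps from tyrosine to eumelanin. The transporters SLC24A5, SLC45A2 and OCA2 set the ions and acidity of the organelle, GPR143 is a receptor in its membrane, MLANA helps PMEL mature, and GPNMB is a membrane glycoprotein related to PMEL. MITF, the master regulator of the lineage, switches most of them on through a short promoter element called the M-box. TFE3 belongs to the same MiT family and recognises closely related sequences, and staining for GPNMB is used to recognise human renal carcinomas with TFE3 fusions. GPNMB is also made by macrophages and other cells rich in lysosomes, and melanosomes share much of their machinery with lysosomes.

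The promoter sequences show how far the members resemble each other at the level of DNA. RefSeq promoter windows, from 250 bases before to 50 bases after the start site (GRCm38.p6), were matched for 6 of the 10 members (Gpnmb, Tyrp1, Dct, Tyr, Slc24a5 and Oca2). Both strands were searched for the longest run of letters that the windows of Tyrp1, Tyr and Dct shared, GTCATGTGCT, which holds the M-box core and is called the M-box here, for the MiT/TFE motifs TCATGTGA, TCACGTGA and TCATATGA, and for the shorter cores CATGTG and CACGTG. The core CATGTG lies inside GTCATGTGCT and TCATGTGA, and the core CACGTG is contained in TCACGTGA. The name is used differently in the study's paper, which gives the M-box as TCAYRTGA (Y is C or T, R is A or G). The MiT/TFE motifs listed fit that form, and GTCATGTGCT does not. The M-box stood in the windows of these 3 genes, which encode the pigment enzymes, by construction, and in 61 of all 32851 windows (0.186%). The 30 bases around it are shown 5′ to 3′ on the strand of the gene with the M-box in capitals, and for Slc24a5 the capitals mark TCACATGA, the reverse complement of TCATGTGA.
Tyrp1 (chr4:80834155-80834184, plus strand): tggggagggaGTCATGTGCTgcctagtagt
Tyr (chr7:87493516-87493545, minus strand): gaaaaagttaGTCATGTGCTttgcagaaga
Dct (chr14:118052379-118052408, minus strand): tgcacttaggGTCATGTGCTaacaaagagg
Slc24a5 (chr2:125068097-125068126, plus strand): ggaggaaggagactgcTCACATGAttcagc

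The M-box began 48 bases before the start site in Tyrp1, 23 bases before it in Tyr and 152 bases before it in Dct. TCATGTGA on either strand was found in 0.986% of all windows, and in Slc24a5 it began 14 bases before the start site. Oca2 held only the core CATGTG, which 14.2% of all windows held, on the reverse strand at 186 bases before the start site. The window of Gpnmb held none of the motifs searched, while TCACGTGA stood in 0.974%, TCATATGA in 0.323% and CACGTG in 7.15% of all windows. The 250 bases before its RefSeq start site are shown because Gpnmb was the most abundant member.
Gpnmb (chr6:49036268-49036517, plus strand): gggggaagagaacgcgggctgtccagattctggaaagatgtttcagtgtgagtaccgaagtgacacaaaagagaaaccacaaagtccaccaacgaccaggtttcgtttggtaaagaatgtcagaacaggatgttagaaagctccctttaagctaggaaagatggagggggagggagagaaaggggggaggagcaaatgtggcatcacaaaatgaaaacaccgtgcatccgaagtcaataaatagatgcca
A match of letters is a description of the window and not a binding site, and a window without one says nothing about binding elsewhere. The study's paper calls GPNMB a direct target of PRCC-TFE3, and binding was not tested here. The start sites of the main transcripts of Gpnmb and Tyrp1 in GENCODE M21 lie downstream of the RefSeq start sites used here, so positions depend on the annotation, and the stretch just before the main Gpnmb transcript was searched only in part.

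The members split into 4 that were expressed in every Cre(+) kidney and 6 that stayed at or below 36.7 counts in every library of the series. In TPM, which scale transcript abundance for length and library total, the order in PRCC-TFE3 KI kidneys was Gpnmb, Tyrp1, Gpr143 and Slc24a5, and the ranges of neighbours in this order did not overlap. Their group means in KI were 11470 ± 642 TPM for Gpnmb, 127.1 ± 28.2 for Tyrp1, 30.4 ± 0.45 for Gpr143 and 5.71 ± 1.47 for Slc24a5 (SD, n = 3). All 13 Cre(+) libraries exceeded all 4 Cre(−) libraries for these 4 members, a pattern that 3417 of the 17011 genes tested also showed. In PRCC-TFE3 KI against Cre(−) kidneys, 60.9% of all genes passed the test in either direction and 28.9% were higher without overlap, and nothing is read from the members' counts in that contrast.

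**Figure D1:**
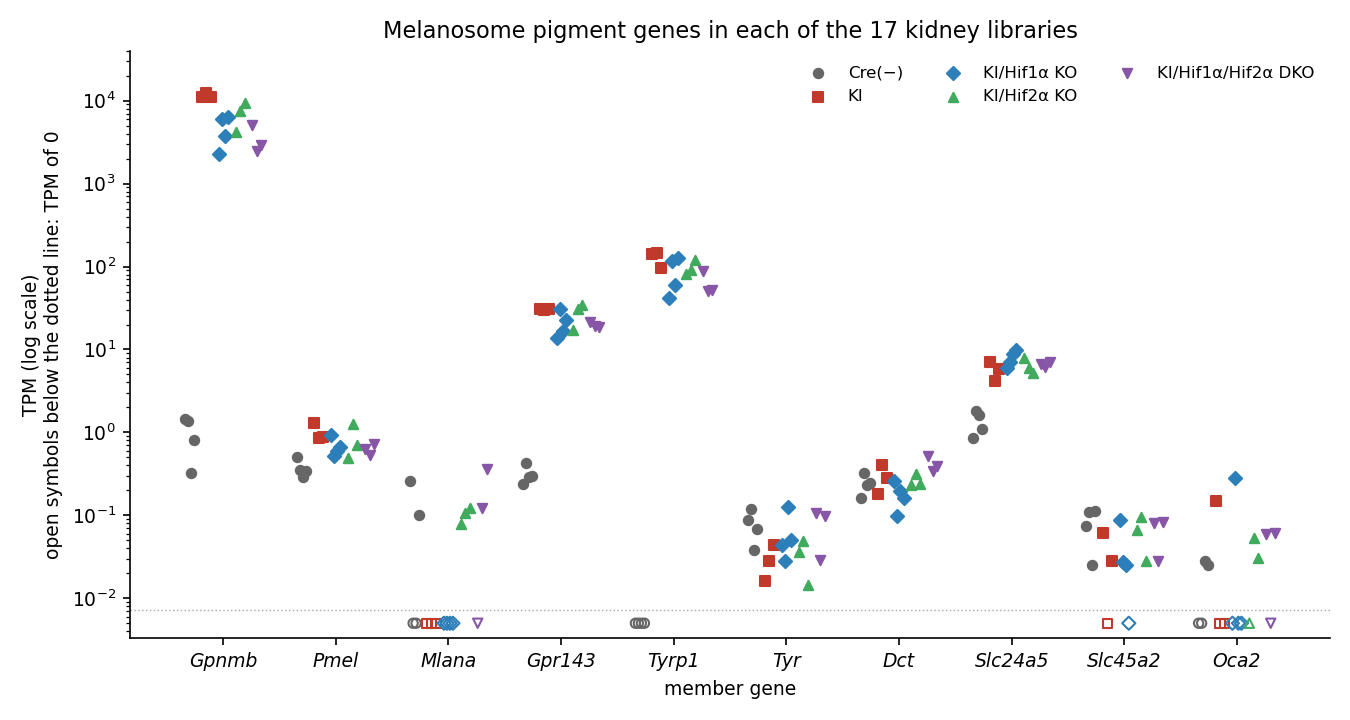
Level of each of the 10 members in TPM, on a log axis, with 1 point per library coloured by genotype group; open symbols under the dotted line are libraries at 0. Gpnmb, Tyrp1, Gpr143 and Slc24a5 are higher in all 13 Cre(+) than in all 4 Cre(−) libraries, while the other 6 members stay at or below 1.293 TPM.

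Among the genes of melanosome structure, Gpnmb (ENSMUSG00000029816.10, chr6:49036546-49070929, plus strand, GRCm38) was the most abundant member. It gave 27.1, 40.1, 15.1 and 21.3 expected counts in the 4 Cre(−) libraries and 226309, 263888 and 273898 in the 3 KI libraries. On the CPM scale these were 1.85, 2.14, 0.993 and 1.33 in Cre(−) and 13010, 14210 and 15630 in KI kidneys, so that the group means differed 9052-fold. Gpnmb was between the 7th and the 9th most abundant gene by TPM in each KI library and took 1.47% ± 0.07 of all counts there (SD, n = 3). The ratio of the mean CPM to that of Cre(−) kidneys was 3555 in Hif1α KO, 5307 in Hif2α KO and 2606 in DKO kidneys.

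The 5 transcripts of Gpnmb kept a similar make-up across the Cre(+) kidneys. The full-length protein-coding transcript ENSMUST00000031840.9 held 52.6% to 67.2% of the Gpnmb counts over the 13 libraries, and a second protein-coding transcript, ENSMUST00000204260.1, held 23.5% to 36.1%. Short transcripts weighed more on the TPM scale: ENSMUST00000203757.1, annotated as a target of nonsense-mediated decay, held 2.55% to 4.06% of the counts but 17.5% to 24.6% of the TPM. The full-length transcript accordingly held 25.3% to 37.5% of the TPM of the gene, and reached 3519 ± 227 TPM in KI kidneys (SD, n = 3). The gene-level TPM of Gpnmb is therefore larger than that of its full-length transcript alone, and these shares are estimates of the authors' quantification.

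Pmel (ENSMUSG00000025359.10, chr10:128704195-128720238, plus strand), whose product builds the fibrils, remained near the limit of detection. Its expected counts were 14.5, 11.5, 8.2 and 10.5 in Cre(−) and 29.6, 20.7 and 22.2 in KI libraries, a ratio of mean CPM of 1.97. All 3 KI libraries lay above all 4 Cre(−) libraries, the Hif1α KO and Hif2α KO libraries overlapped both groups, and the DKO libraries, at 0.68 to 0.93 CPM, lay within the Cre(−) range of 0.53 to 1.03 CPM. Pmel shares 34 of its 2292 exon bases with Cdk2 and 105 with Dgka on the opposite strand, and the strand setting of the authors' counting is not given in the sources used here, so that a part of these few reads cannot be assigned. Mlana (ENSMUSG00000024806.4, chr19:29697824-29708634, plus strand) had at most 3 counts in any library and none in the KI and Hif1α KO libraries.

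Gpr143 (ENSMUSG00000025333.10, chrX:152781921-152808646, plus strand), the melanosomal receptor, had 5, 9, 6 and 6 counts in Cre(−) and 514, 528 and 559 in KI libraries. The mean was 0.40 ± 0.06 CPM in Cre(−) (SD, n = 4) and 29.96 ± 1.77 CPM in KI kidneys (SD, n = 3), a ratio of 74.9. The KI libraries were close to each other, whereas the Hif1α KO libraries spread from 14.4 to 30.3 CPM and the Hif2α KO libraries from 16.2 to 31.9 CPM. The ratio to Cre(−) was 51.7 in Hif1α KO, 63.3 in Hif2α KO and 45.7 in DKO kidneys. Its protein-coding transcript ENSMUST00000026383.3 held at least 96.0% of the gene's counts in every Cre(+) library.

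The 3 pigment enzymes differed from each other in level. The M-box that their promoter windows share was defined from these windows, so it is not weighed against the levels. Tyrp1 (ENSMUSG00000005994.14, chr4:80834123-80851719, plus strand) had 0 counts in each of the 4 Cre(−) libraries, which allows up to 0.161 to 0.206 CPM, and 3820, 4418 and 2897 counts in the KI libraries. Its mean in KI kidneys, 207.6 ± 37.8 CPM (SD, n = 3), was at least 1101-fold higher than 3 counts per Cre(−) library. The same lower bound was 744.6-fold in Hif1α KO, 790.2-fold in Hif2α KO and 517.1-fold in DKO kidneys. One protein-coding transcript, ENSMUST00000102831.7, held 91.5% to 98.2% of the Tyrp1 counts.

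Tyr (ENSMUSG00000004651.6, chr7:87424771-87493512, minus strand), which encodes the rate-limiting enzyme tyrosinase, had 7.4, 11.3, 3.1 and 6.1 counts in Cre(−) and 1.1, 2.0 and 3.2 in KI libraries. Hif1α KO libraries had 3.1, 2.1, 10.2 and 5.1, Hif2α KO libraries 3.3, 4.2 and 1.1, and DKO libraries 8.1, 2.1 and 7.3. All 3 KI libraries lay below all 4 Cre(−) libraries in CPM, as did 27.7% of all genes tested, and the ratio of the KI to the Cre(−) mean was 0.27. Dct (ENSMUSG00000022129.4, chr14:118012790-118052244, minus strand), which encodes dopachrome tautomerase, had 4.3 to 17.4 counts over all 17 libraries, and its mean CPM in KI kidneys was 0.73 times that in Cre(−) kidneys. Of its counts in the series, 178.6 were placed on the retained-intron transcript ENSMUST00000228925.1 and 10.3 on the protein-coding transcript ENSMUST00000022725.3. For neither gene was a higher level in KI kidneys detectable at this depth.

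Of the transporters, Slc24a5 (ENSMUSG00000035183.14, chr2:125068124-125088677, plus strand), a potassium-dependent sodium/calcium exchanger, had 19.2, 35.5, 38.2 and 31.5 counts in Cre(−) and 145.7, 93.7 and 134.3 in KI libraries. Cre(−) kidneys averaged 1.93 ± 0.50 CPM (SD, n = 4) and KI kidneys 7.03 ± 1.75 CPM (SD, n = 3), a ratio of 3.65. The ratio was 5.16 in Hif1α KO, 3.92 in Hif2α KO and 3.96 in DKO kidneys, so that the highest group mean of this member was in Hif1α KO and not in KI kidneys. Slc24a5 shares 921 of its 2330 exon bases with Myef2 on the opposite strand, which was at 26.97 ± 5.14 CPM in Cre(−) (n = 4) and 50.5 ± 11.3 CPM in KI kidneys (n = 3, SD). Its value is uncertain to that extent. Slc45a2 (ENSMUSG00000022243.10, chr15:11000721-11029233, plus strand), a sugar and proton transporter, and Oca2 (ENSMUSG00000030450.11, chr7:56239760-56536518, plus strand), which shapes the acidity of the organelle through chloride, had at most 5 counts in any library.

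**Figure D2:**
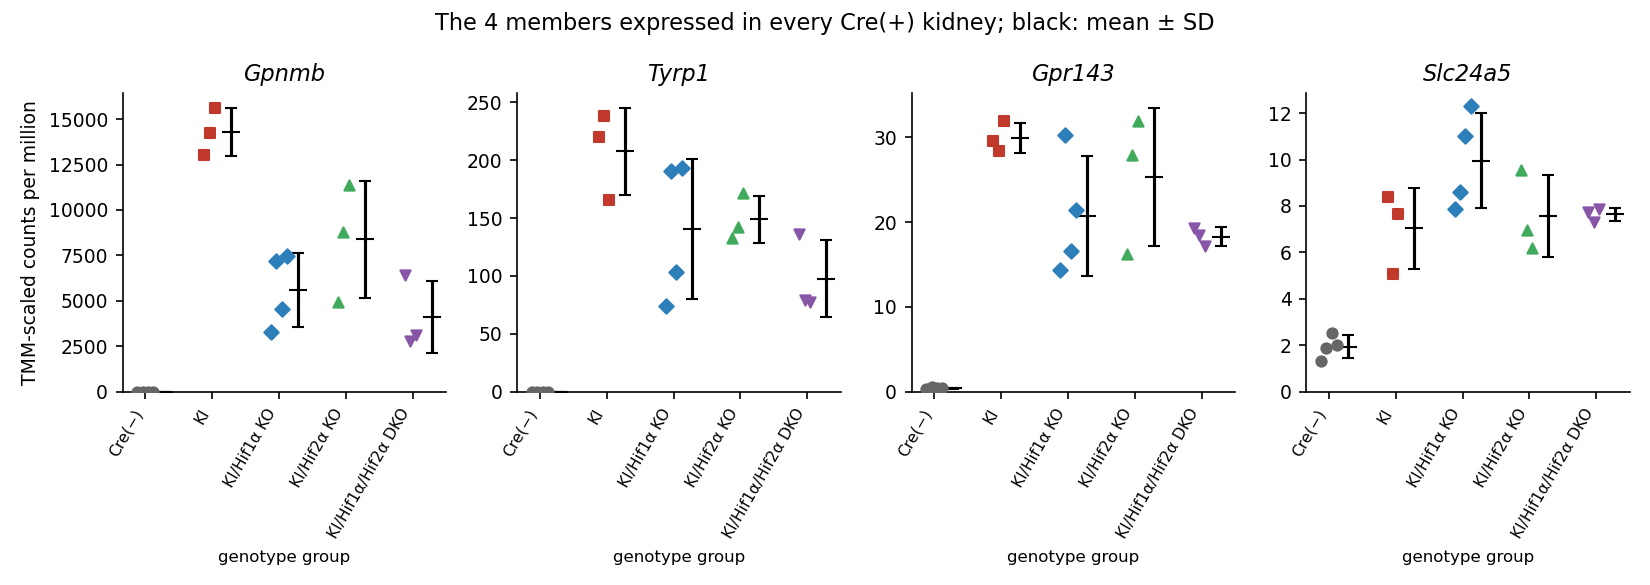
TMM-scaled CPM of Gpnmb, Tyrp1, Gpr143 and Slc24a5 in each library by genotype group, on linear axes from 0, with the group mean ± SD in black. Gpnmb, Tyrp1 and Gpr143 have their highest group mean in PRCC-TFE3 KI kidneys, and Slc24a5 has its highest, 9.95 CPM, in Hif1α KO kidneys.

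Next, it was asked how loss of Hif1α, Hif2α or both changed the members within kidneys that express PRCC-TFE3. Which values named the members is not stated, and the levels of all 5 groups were in view, so the tests against KI are not independent of the choice. The 3 contrasts share the KI libraries. Gpnmb fell with loss of Hif1α and with loss of both factors. Its level was 13010, 14210 and 15630 CPM in KI kidneys. It was 3269, 7175, 4539 and 7452 CPM in Hif1α KO, 4953, 8779 and 11390 CPM in Hif2α KO and 6415, 2806 and 3113 CPM in DKO kidneys. The group means ± SD were 14280 ± 1312 in KI (n = 3), 5609 ± 2039 in Hif1α KO (n = 4), 8374 ± 3238 in Hif2α KO (n = 3) and 4111 ± 2001 CPM in DKO kidneys (n = 3). Every library of the 3 knockout groups lay below every KI library, as did 10.3%, 10.7% and 17.2% of all genes tested in the respective contrasts.

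The mean of Gpnmb in Hif1α KO kidneys was 39.3% of that in KI (log2 fold change −1.35, SE 0.34, adjusted p = 0.032, edgeR quasi-likelihood F-test, Benjamini-Hochberg). In DKO kidneys it was 28.8% (log2 fold change −1.80, SE 0.37, adjusted p = 0.0082 by the same edgeR test). In Hif2α KO kidneys it was 58.6% (log2 fold change −0.77, SE 0.36) and did not pass the test (edgeR adjusted p = 0.26). Among all genes tested, 5.44% passed in Hif1α KO, 1.39% in Hif2α KO and 12.7% in DKO against KI kidneys, and those that passed as lower were 2.86%, 0.647% and 6.19%, against 2.57%, 0.741% and 6.53% as higher. The Hif1α call was close to the threshold. Leaving out KI replicate 1, 2 or 3, or Hif1α KO replicate 1 or 3, gave adjusted p-values of 0.054 to 0.098 with a log2 fold change of −1.16 to −1.41, and a fit of only the 2 groups gave adjusted p = 0.058 by edgeR. The DKO call held in every alternative run for it, including each replicate left out (edgeR adjusted p up to 0.047).

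Tyrp1 stood at 219.6, 237.9 and 165.3 CPM in KI kidneys. It was at 74.3, 190.9, 103.2 and 193.3 CPM in Hif1α KO, at 133.0, 142.0 and 172.0 in Hif2α KO, and at 135.9, 78.9 and 77.8 in DKO kidneys. All 3 DKO libraries lay below the KI libraries, while both single knockouts overlapped them. The DKO mean was 47.0% of the KI mean (log2 fold change −1.09, SE 0.34) and missed the threshold by edgeR (adjusted p = 0.053). It passed in 2 alternatives, with DESeq2 (adjusted p = 0.0097) and in edgeR without DKO replicate 1, the highest library of that group (adjusted p = 0.029). In the other 11 alternatives it did not pass, with edgeR adjusted p up to 0.177 when a replicate was left out. The log2 fold change was −0.56 (SE 0.31, edgeR adjusted p = 0.31) in Hif1α KO and −0.48 (SE 0.33, edgeR adjusted p = 0.46) in Hif2α KO kidneys.

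For Gpr143 all 3 DKO libraries, at 19.3, 18.4 and 17.1 CPM, again lay below the KI libraries at 29.6, 28.4 and 31.9 CPM. The DKO mean was 61.0% of the KI mean (log2 fold change −0.71, SE 0.24, edgeR adjusted p = 0.064). It passed in 2 alternatives, with DESeq2 (adjusted p = 0.0498) and in edgeR on these 2 groups alone (adjusted p = 0.030). In the other 11 alternatives it did not pass, with edgeR adjusted p up to 0.174 when a replicate was left out. In Hif1α KO kidneys Gpr143 was at 14.4, 30.3, 16.6 and 21.5 CPM (log2 fold change −0.53, SE 0.22, edgeR adjusted p = 0.17). Replicate 2 was the only one of these libraries within the range of KI kidneys, and leaving it out gave an edgeR adjusted p of 0.031. That library is the one least like a fall, and the other 13 alternatives did not pass. With other replicates left out the edgeR adjusted p reached 0.362. In Hif2α KO kidneys, at 16.2, 27.9 and 31.9 CPM, the log2 fold change was −0.24 (SE 0.24, edgeR adjusted p = 0.62).

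Slc24a5 did not share this direction. It was at 8.39, 5.06 and 7.65 CPM in KI, 7.89, 8.62, 11.0 and 12.3 in Hif1α KO, 9.55, 6.96 and 6.18 in Hif2α KO, and 7.75, 7.32 and 7.86 in DKO kidneys. Its log2 fold changes were +0.50 (SE 0.22), +0.11 (SE 0.24) and +0.12 (SE 0.24), and none passed the test (edgeR adjusted p = 0.20, 0.85 and 0.78). Pmel, at log2 fold changes of −0.54, −0.46 and −0.74, and Dct, at −0.38, +0.03 and +0.61, did not pass either and rest on few reads. In all, 1 of the 6 members tested passed in Hif1α KO, none in Hif2α KO and 1 in DKO kidneys, the same gene in both, Gpnmb. The shares over all genes tested were 5.44%, 1.39% and 12.7% in either direction, and nothing is read from these counts.

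**Figure D3:**
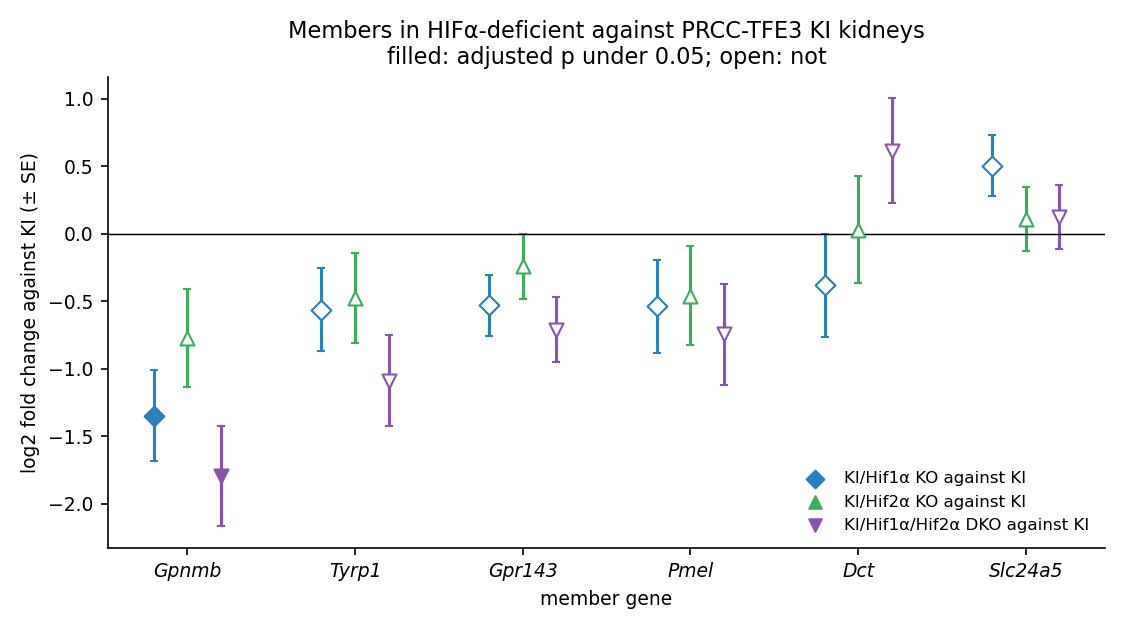
Log2 fold change ± SE of the 6 members tested in each knockout group against PRCC-TFE3 KI kidneys, filled where the adjusted p was under 0.05. Gpnmb is filled at −1.35 in Hif1α KO and −1.80 in DKO; Tyrp1 and Gpr143 lie below 0 without passing, and Slc24a5 lies above 0.

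No member passed the test between the knockout groups. Gpnmb was 67.0% of its Hif2α KO mean in Hif1α KO kidneys (log2 fold change −0.58, SE 0.34, edgeR adjusted p = 0.44), 73.3% of its Hif1α KO mean in DKO (−0.45, SE 0.34, edgeR adjusted p = 0.63), and 49.1% of its Hif2α KO mean in DKO (−1.03, SE 0.36, edgeR adjusted p = 0.88, unadjusted p = 0.013). Of all genes tested, 0.429%, 0.406% and 0.00588% passed in these 3 contrasts. The interaction of both deletions, which asks whether loss of Hif1α acted differently with and without Hif2α, was 0.32 (SE 0.49) on the log2 scale for Gpnmb (edgeR adjusted p = 0.99). It passed for 0 of the 17011 genes by edgeR, with 1013 at an unadjusted p under 0.05, and for 31 genes by DESeq2, none of them a member. The lower level of Gpnmb in Hif1α KO than in KI kidneys was thus not shown to differ from that in Hif2α KO.

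Tubule markers that passed in these contrasts were higher in the knockout groups, where Gpnmb was lower. Of 4 proximal tubule markers, 3 were higher in Hif1α KO and 3 in DKO than in KI kidneys and none in Hif2α KO, and of 5 distal nephron markers 3, 5 and 1 were higher. Among all genes, 2.57%, 6.53% and 0.741% passed as higher in these contrasts in the same order. The summed TPM of the latter was 1065 to 1653 in KI, 2020 to 3465 in Hif1α KO, 1995 to 2986 in Hif2α KO and 2651 to 3783 in DKO kidneys. Within each knockout group the library with the highest proximal tubule sum, 651.9 TPM in Hif1α KO replicate 1, 564.6 in Hif2α KO replicate 1 and 599.8 in DKO replicate 2, had the lowest Gpnmb level of its group. Their part in the result was not tested. Without KI replicate 2, the library rich in adipocyte markers, the log2 fold change of Gpnmb was −1.35 in Hif1α KO (edgeR adjusted p = 0.077) and −1.80 in DKO kidneys (edgeR adjusted p = 0.021).

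Of the 10 macrophage markers, 9 passed as higher in KI against Cre(−) kidneys, as did 31.6% of all genes. Between KI and Hif1α KO kidneys 2 were higher with loss of Hif1α, Adgre1 and Mrc1, and 1 was lower, Cd68. In DKO 1 was higher, Adgre1, and 1 lower, Cd68, and in Hif2α KO none passed. Of all genes, 2.57% passed as higher and 2.86% as lower in Hif1α KO, and 6.53% and 6.19% in DKO against KI kidneys. Cd68, a lysosomal membrane protein, fell by 0.93 on the log2 scale (SE 0.19, edgeR adjusted p = 0.017) in Hif1α KO and by 1.39 (SE 0.21, edgeR adjusted p = 0.0021) in DKO kidneys. The median of the list was +0.26 in Hif1α KO, +0.28 in Hif2α KO and +0.16 in DKO kidneys, against −0.003, −0.007 and −0.003 over all genes. Cd68 held 1563 to 1745 of the 2364 to 2686 summed TPM in KI kidneys. The part of macrophages in the level of Gpnmb was not tested.

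Apart from Trpm1, the markers of melanocytes themselves were at or near 0. Of 6 markers, Sox10, Pax3, Mc1r, Tyr and Mlana were left out by the filter on low counts, and the highest values in any library were 0.518 CPM for Sox10, 0.274 for Pax3 and 0.517 for Mc1r. Tyr and Mlana are also members. Mc1r was at 0.0535 to 0.189 CPM in Cre(−) and at 0.215 to 0.517 CPM in KI kidneys, which rests on few reads. Trpm1, an ion channel gene and MITF target, was the exception. It carried the summed TPM of this list, which was 0.734 to 1.18 in Cre(−) and 313.7 to 391.2 in KI kidneys. Trpm1 was at 1.10, 1.07, 1.46 and 1.39 CPM in Cre(−) and at 505.4, 443.5 and 406.8 CPM in KI kidneys (log2 fold change 8.49, SE 0.38, higher in 3 of 3 libraries). In the knockout groups it ranged from 173.3 to 365.3 CPM in Hif1α KO, 346.2 to 377.9 in Hif2α KO and 186.9 to 477.1 in DKO kidneys, and its log2 fold changes against KI of −0.69, −0.30 and −0.51 did not pass (edgeR adjusted p = 0.15, 0.61 and 0.26).

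Regulators of the melanocyte lineage did not rise as a group. Of 12 genes, 8 were tested, of which 3 rose and 3 fell in KI against Cre(−) kidneys, where 31.6% and 29.3% of all genes did, and the median log2 fold change was −0.07 against +0.03 over all genes. Kit, the receptor for stem cell factor, rose by 2.62 (SE 0.26) and Kitl, its ligand, by 1.45 (SE 0.18), both on the log2 scale with Trpm1 as the third. Mitf was lower in KI kidneys, at 14.8, 16.7 and 19.1 CPM against 31.6 to 39.7 in Cre(−) kidneys (log2 fold change −1.09, SE 0.15). Its log2 fold changes in the knockout groups against KI, +0.11, +0.06 and +0.34, did not pass the test.

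Among the other MiT genes, Tfe3 rose by 0.65 (SE 0.08) on the log2 scale, a sum that may hold reads of the fusion transcript, while Tfeb (+0.19) and Tfec (+0.06) did not pass. None of the 4 MiT genes passed in any contrast between Cre(+) groups. In DKO against KI kidneys 2 of the 8 lineage genes tested rose and 2 fell, where 6.53% and 6.19% of all genes did. Kit fell by 1.25 (SE 0.28) and Kitl by 0.62 (SE 0.19), and Lef1, a Wnt effector, rose by 1.14 (SE 0.33) and Tfap2a, a transcription factor of the neural crest, by 0.75 (SE 0.18). Of the 8 lineage genes tested, Kitl alone passed between the 2 single knockouts. It was at 121.4 to 164.1 CPM in Hif1α KO and 70.2 to 78.6 CPM in Hif2α KO kidneys (log2 fold change 0.95, SE 0.18, edgeR adjusted p = 0.034), and it was lower in DKO than in Hif1α KO kidneys (log2 fold change −0.96, edgeR adjusted p = 0.040). As a background, 0.329% of all genes passed as higher in the first of these contrasts and 0.317% as lower in the second.

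Genes of melanosome biogenesis and transport, which serve lysosome-related organelles in many cells, were all past the filter on low counts. Of these 29 genes, 16 rose and 5 fell in KI against Cre(−) kidneys, where 31.6% and 29.3% of all genes did, with a median log2 fold change of +0.31 against +0.03 over all genes. Mreg, which encodes melanoregulin, showed the largest change of the list, from 4.37 to 8.21 CPM in Cre(−) to 327.6 to 358.3 CPM in KI kidneys (log2 fold change 5.84, SE 0.25). Bace2, a protease that cleaves PMEL, rose by 3.79 (SE 0.42), Myo5a, the myosin that carries melanosomes along actin, by 2.68 (SE 0.24), and Rab27a, the GTPase that recruits it, by 1.94 (SE 0.09), all on the log2 scale.

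With loss of Hif1α 8 of these 29 genes fell and none rose, with loss of both factors 8 fell and none rose, and with loss of Hif2α 1 fell, Ostm1. Of all genes, 2.86%, 6.19% and 0.647% fell in these contrasts. The medians were −0.20 in Hif1α KO, −0.19 in DKO and −0.11 in Hif2α KO, against −0.003, −0.003 and −0.007 over all genes. Mreg fell by 0.83 (SE 0.21, edgeR adjusted p = 0.034) in Hif1α KO and by 1.05 (SE 0.23, edgeR adjusted p = 0.010) in DKO kidneys. Myo5a fell by 0.82 and 1.11, and Hps4, a subunit of a complex that builds lysosome-related organelles, by 0.75 and 0.70. None of the 29 passed in the contrasts between knockout groups. The list was drawn up with earlier results of these kidneys known, and the proximal and distal tubule sums given above moved in the same contrasts.

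**Figure D4:**
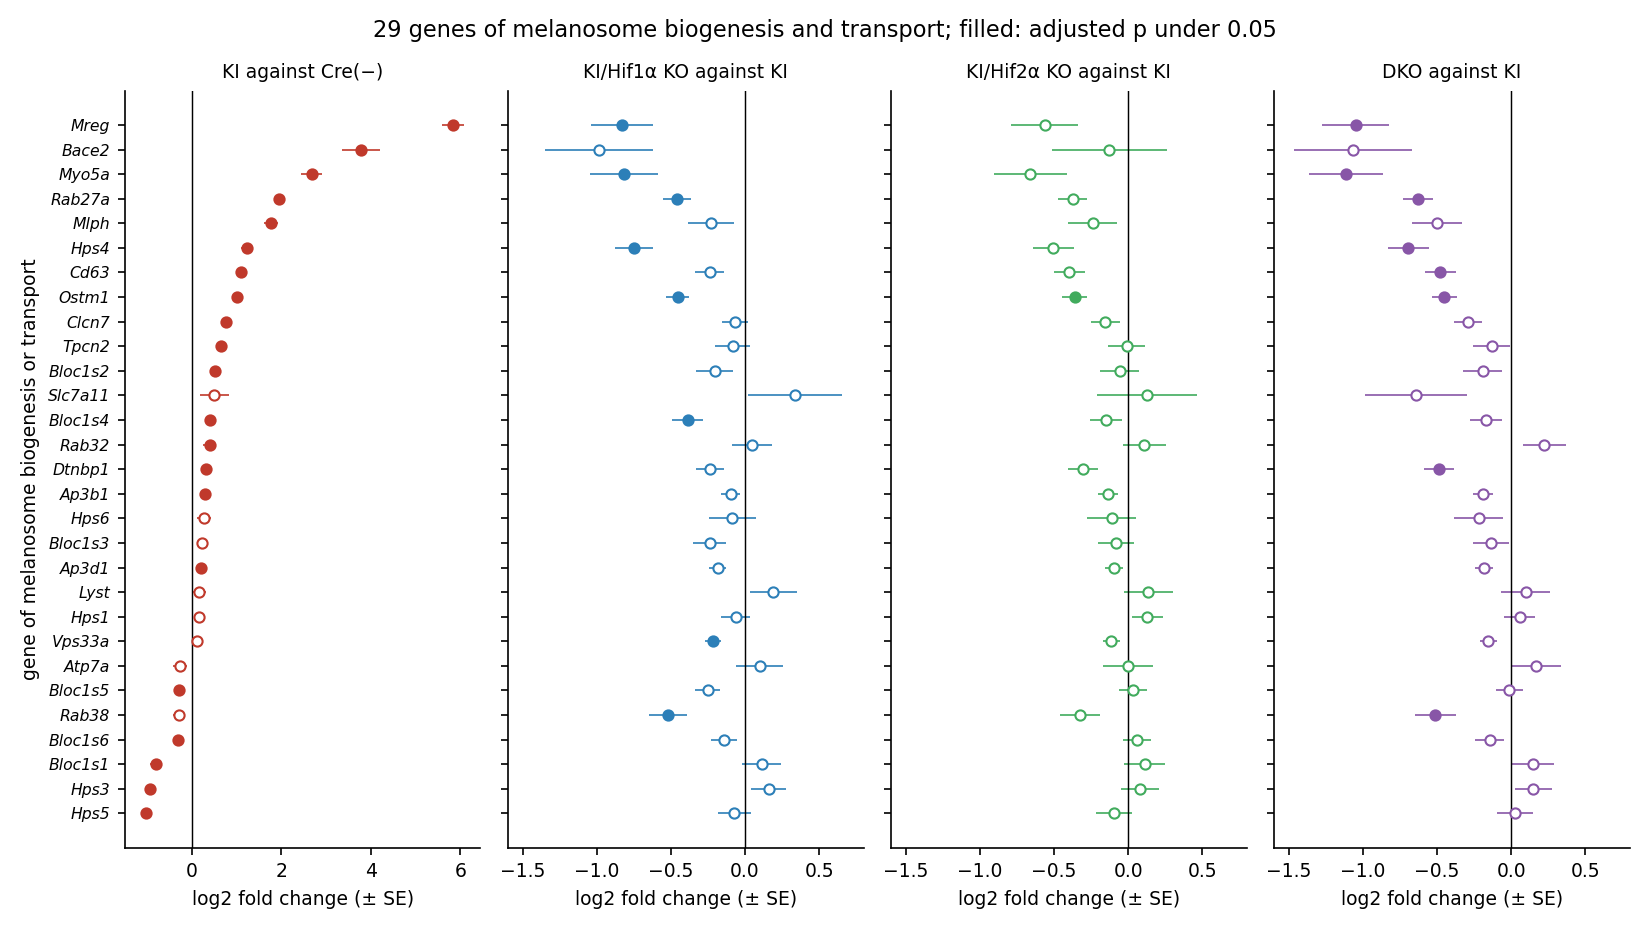
Log2 fold change ± SE of 29 genes of melanosome biogenesis and transport in PRCC-TFE3 KI against Cre(−) kidneys and in each knockout group against KI, sorted by the first contrast and filled where the adjusted p was under 0.05; the first panel has a wider axis. Mreg leads at 5.84, and 8, 1 and 8 genes are filled below 0 in Hif1α KO, Hif2α KO and DKO kidneys.

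Other targets of the MiT/TFE factors, which act in the lysosome and in nutrient sensing, were counted in the same way. Of 20 genes, 14 rose and 4 fell in KI against Cre(−) kidneys, where 31.6% and 29.3% of all genes did, with a median log2 fold change of +1.13 against +0.03 over all genes. Hexa, a lysosomal hexosaminidase subunit, rose by 3.41 (SE 0.12), Ctsd, the protease cathepsin D, by 2.20 (SE 0.16) and Rragd, a GTPase that signals amino acids to mTORC1, by 2.02 (SE 0.14), while Trim63, a muscle ubiquitin ligase, fell by 2.90 (SE 0.42). Against KI kidneys 5 of the 20 fell in Hif1α KO, 3 in Hif2α KO and 11 in DKO kidneys, in which 1 rose, Ctsk, the protease cathepsin K. Of all genes, 2.86%, 0.647% and 6.19% fell in these contrasts, and 6.53% rose in the DKO. In DKO kidneys Ctsd fell by 0.74 (SE 0.17), Fnip2, a partner of folliculin, by 0.72 (SE 0.13) and Mcoln1, a lysosomal calcium channel, by 0.66 (SE 0.10), while Ctsk rose by 0.67 (SE 0.17). The medians of the 20 genes were −0.29, −0.31 and −0.50, against −0.003, −0.007 and −0.003 over all genes.

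Finally, the expressed members were compared library by library in the 13 Cre(+) kidneys. Values were permuted over all 13 libraries without regard to genotype group. The permutation p-values therefore also reflect differences between group means that a pair of members shares. The correlations after the group means were removed were given no p-value. Gpnmb and Tyrp1 varied together (Pearson r = 0.897, permutation p = 9e-05, adjusted over 6 pairs 0.00054; Spearman rho = 0.841, permutation p = 0.00052, adjusted 0.0031). Without the 2 libraries farthest from the median of Gpnmb, DKO replicates 2 and 3, r was 0.832, and after the group means were removed it was 0.826. Gpnmb and Gpr143 gave r = 0.877 (permutation p = 0.00032, adjusted 0.00096) and rho = 0.802 (permutation p = 0.0015, adjusted 0.0046), with r = 0.904 without the same 2 libraries and 0.798 without the group means. Tyrp1 and Gpr143 gave r = 0.794 (permutation p = 0.0021, adjusted 0.0042) and rho = 0.758 (permutation p = 0.0040, adjusted 0.0079), with r = 0.698 without Hif1α KO replicate 1 and DKO replicate 3 and 0.657 without the group means. P-values were two-sided.

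Slc24a5 followed none of them, with r of −0.337 to Gpnmb, −0.142 to Tyrp1 and −0.429 to Gpr143 (adjusted permutation p = 0.32, 0.64 and 0.22) and rho of −0.324, −0.115 and −0.423 (adjusted permutation p = 0.34, 0.71 and 0.23). Without the 2 farthest libraries r was −0.519, −0.216 and −0.419. The libraries differ in their tubule content, as given above, and the part of that difference in these correlations was not tested.

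**Figure D5:**
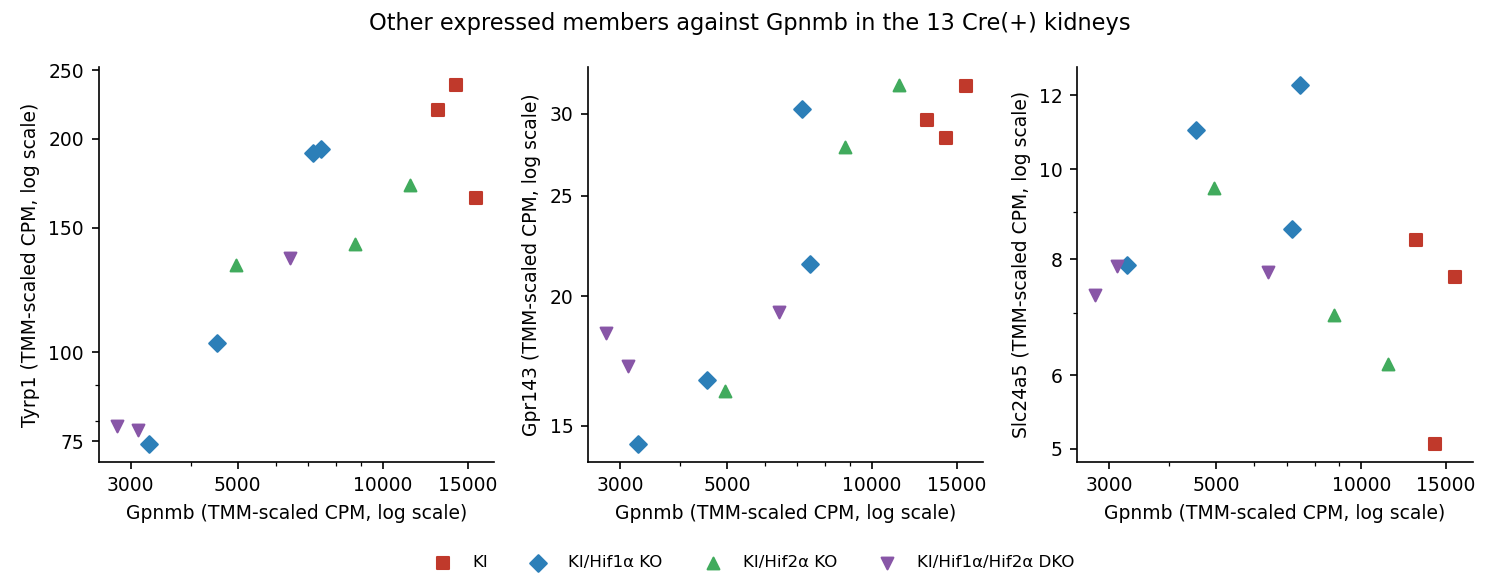
Tyrp1, Gpr143 and Slc24a5 against Gpnmb in the 13 Cre(+) libraries, in TMM-scaled CPM on log axes, with 1 point per library coloured by group. Tyrp1 (r = 0.897) and Gpr143 (r = 0.877) increase with Gpnmb, and Slc24a5 (r = −0.337) does not.

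Many other genes followed Gpnmb more closely than the other members did. Over the 13 Cre(+) libraries the highest correlations of log2 CPM with Gpnmb were those of Rnh1, a ribonuclease inhibitor (r = 0.978), Optn, an autophagy receptor (r = 0.978), Gaa, the lysosomal enzyme that breaks down glycogen (r = 0.977), Tpcn1, an endolysosomal cation channel (r = 0.976), and Dync1h1, the dynein motor (r = 0.975). Tyrp1 was the 253rd and Gpr143 the 338th of 17010 other genes in this order. Optn was at 25.8 ± 3.5 CPM in Cre(−) (SD, n = 4), 415.4 ± 38.2 in KI (n = 3), 217.8 ± 55.3 in Hif1α KO (n = 4), 279.0 ± 69.5 in Hif2α KO (n = 3) and 185.9 ± 52.4 CPM in DKO kidneys (n = 3). The order of group means was the same as for Gpnmb, which the choice of Optn by its correlation with Gpnmb makes likely in advance. These correlations are descriptions over libraries that share the differences in tissue content given above.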

How the data were processed

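Kidney RNA was made into TruSeq stranded mRNA libraries and sequenced. The methods and the submitters' processing notes name Trim Galore 0.6.6 with cutadapt 2.5, STAR 2.7.9a and RSEM, with the builds hg38 and GRCm38. Since mouse transcripts are listed in the files, GRCm38 with GENCODE M21 was used here. The authors deposited expected counts per transcript, which are estimates before any scaling. Transcript TPM, scaled for length and library total, were likewise deposited by the authors.

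Of 119353 transcripts, 116770 (97.8%) matched GENCODE M21 and held 99.04% to 99.24% of the counts; the other 2583 were left out. Counts and TPM were summed per gene and count sums rounded. All columns mapped to a sample. No libraries were identical.

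Groups were compared by quasi-likelihood F-tests in edgeR 4.0.16 (R 4.3.3) with TMM factors and filterByExpr (minimum count 10), in one fit of the 17 libraries with 1 coefficient per group. It kept 17011 genes, left out 18960, and adjusted p-values over all genes tested (Benjamini-Hochberg, threshold 0.05). CPM are on TMM-scaled library sizes. Correlations used log2 CPM (prior count 2) and 100000 permutations over all Cre(+) libraries, without regard to genotype group. The code was tested on simulated data. Alternatives were DESeq2 1.42.0, its size factors in edgeR, no filter, a replicate block, a fit of only the groups compared, limma 3.58.1 on log2(TPM + 1) and log2(TPM + 0.1), either pair of Cre(−) mice, and each replicate left out. Replicate numbers come from the titles and name different mice. They did not pair libraries: 4 of 31 same-number pairs had a correlation of deviations over 0.1, from −0.22 to 0.25.

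The members and lists were chosen with earlier results of these data known. Named genes are all members, of each list the 4 with the largest change in KI against Cre(−) kidneys and up to 4 that passed between Cre(+) groups, the 5 most like Gpnmb, and Hif1a and Epas1. Genes named from the marker lists beyond this were chosen after their values were seen. For list genes named by their change against Cre(−) kidneys, that change is a description. One list symbol, Asip, had no single gene in the files. Pandas 2.3.3, scipy 1.17.1 and matplotlib 3.10.9 were used in Python 3.11.15.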

Additional observations from a re-analysis of the deposited data

Results flagged for a closer look

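One value among the members stood far from the others of its group. Oca2 had 4 counts in Hif1α KO replicate 2 and 0 in the other 3 libraries of that group, so that the gap to the nearest library was 1.0 of the group's range. Oca2 had at most 5 counts in any library of the series. With counts in only 1 library of a group, this gap is always 1.0 of the range.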

How the results depend on the processing

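Of 699 values of single members under the alternatives, 647 kept their direction and their side of the threshold, 13 lost and 5 gained significance and 34 changed sign. The fall of Gpnmb in DKO kidneys passed in every setting run. Its fall in Hif1α KO kidneys kept its direction throughout, but the count of members that passed, 1, was 0 with only the groups compared, with the replicate block and with limma on log2(TPM + 0.1), and 0 to 2 with a replicate left out. Under the replicate block the log2 fold change was −1.47 (edgeR adjusted p = 0.067); replicate numbers are no pairing here, 3 of 17 libraries correlated best with one of their own number, and the block changed no other call of a member between Cre(+) groups. In DKO kidneys 1 member passed, against 3 with DESeq2, 2 with only the groups compared and 1 to 2 with a replicate left out.

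Values that changed sign were small or rest on few reads. Dct in KI against Cre(−) kidneys was 0.0573 and 0.185 by limma on log2(TPM + 1) and log2(TPM + 0.1), and in Hif2α KO against KI −0.0286 and −0.0726. The interaction for Tyrp1 was 0.16 with the replicate block and 0.0431 with either limma fit. With a replicate left out, log2 fold changes against KI ran from −0.62 to 0.0909 for Dct in Hif1α KO, −0.19 to 0.50 for Dct and −0.0975 to 0.25 for Slc24a5 in Hif2α KO, and −0.0692 to 0.27 for Slc24a5 in DKO. For Hif1α KO against Hif2α KO they ran from −0.28 to 0.11 for Tyrp1 and −0.29 to 0.48 for Pmel. For DKO they ran from −0.31 to 0.0613 for Gpr143 against Hif1α KO, and from −0.50 to 0.27 for Pmel and −0.11 to 0.22 for Slc24a5 against Hif2α KO. The interaction ran from −0.15 to 0.61 for Gpnmb, −0.36 to 0.15 for Tyrp1 and −0.18 to 0.30 for Gpr143. The cause was not tested.

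Over all genes, 925 passed in Hif1α KO (246 with only the groups compared, 1665 with DESeq2), 236 in Hif2α KO (2 and 1015) and 2164 in DKO against KI (1028 and 2905). On the TPM scale the median of all genes in KI against Cre(−) kidneys was 0.38 or 0.48, against 0.03 with edgeR. Depth limits the 6 members at or below 36.7 counts.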
